A study of Mus musculus with 11 samples.

Results

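Bex1 (brain expressed X-linked 1, Entrez Gene 19716) was the gene with the largest difference between M2a and M1 macrophages toward M2a among the 18193 genes measured, and it was chosen by that measured difference. It was represented by 1 probe set, 1448595_a_at, so no choice among probe sets was needed. Bone marrow of C57BL/6 mice that lack Rag1 (Rag1-/-, aged 7 weeks, a genotype shared by all groups) was kept in culture for 7 days, after which cells positive for F4/80 were sorted. M0 cells had no cytokines (5 arrays), M1 cells had IFN-g with LPS for the last 24 h (3 arrays), and M2a cells had IL-4 and IL-13 (3 arrays). Rag1-/- mice make no mature T or B cells. Total RNA was hybridised to Affymetrix arrays, and values are log2 probe-set levels as deposited. Whether the numbered replicates of a group are separate mice is not stated in the labels, and the p-values then reflect no more than the spread among these arrays, which may be technical.

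The BEX genes encode small proteins with little fixed structure, and in the mouse most of them lie in 1 cluster on the X chromosome beside the related TCEAL genes. They are best known from neurons and from other differentiating cells. Bex1 protein binds the intracellular part of the p75 neurotrophin receptor (Ngfr) and has been studied in nerve regeneration, in muscle regeneration and in the cell cycle. Bex3, also called NADE, binds the same receptor and takes part in its death signal. IL-4 and IL-13 act through Il4ra and the transcription factor Stat6.

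In the RefSeq annotation of GRCm38.p6, Bex1 occupied chrX:136213972-136215513 on the minus strand. A second RefSeq gene model, LOC115489115, lay inside it at chrX:136214919-136215477. The 250 bases before the RefSeq start are shown for Bex1 and for its paralog Bex4, because these windows are nearly the same while the levels of the genes differed between M0 and M2a, as given further on. The Bex1 window is chrX:136215514-136215763 (minus strand) and the Bex4 window chrX:136138746-136138995 (plus strand). Both are written 5′ to 3′, and capitals mark the longest run of bases that they share.
Bex1: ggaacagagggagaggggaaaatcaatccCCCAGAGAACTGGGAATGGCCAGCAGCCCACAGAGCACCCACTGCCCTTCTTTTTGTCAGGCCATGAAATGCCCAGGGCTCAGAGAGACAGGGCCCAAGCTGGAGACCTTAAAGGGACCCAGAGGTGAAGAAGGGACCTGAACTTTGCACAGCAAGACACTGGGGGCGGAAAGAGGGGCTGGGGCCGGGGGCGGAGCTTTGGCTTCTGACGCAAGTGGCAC
Bex4: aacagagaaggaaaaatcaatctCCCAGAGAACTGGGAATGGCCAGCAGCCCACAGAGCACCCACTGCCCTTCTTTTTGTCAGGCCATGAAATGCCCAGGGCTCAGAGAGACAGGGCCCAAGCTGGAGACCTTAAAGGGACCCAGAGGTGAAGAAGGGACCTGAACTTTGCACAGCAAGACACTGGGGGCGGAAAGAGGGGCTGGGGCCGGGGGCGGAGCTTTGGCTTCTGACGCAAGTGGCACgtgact
The shared run was 221 bases long and lay at positions -221 to -1 before the start in Bex1 and at -227 to -7 in Bex4. It ends where the Bex1 window ends, so it may be longer. Of the 244 bases aligned without a gap, 241 were identical (98.8%). Bex2 and Bex3 formed the other alike pair, with 186 of 212 aligned bases identical (87.7%), whereas Bex1 shared 61.9% with Bex2 and 63.1% with Bex3. Whether the Bex1 probe set also binds transcripts of Bex4 was not tested.

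Short motifs were searched in these windows on both strands, without regard to overlaps between motifs. The letters TTC and GAA with any 4 bases between them, which Stat6 can bind, had no match in the windows of Bex1, Bex2, Bex3, Bex4 or Bex6. They had a match in 5.85% of the 32851 promoter windows of the same length. The GC box GGGCGG had 2 matches in Bex1, 2 in Bex4 and 1 in Bex3, and 32.7% of all windows held it. The E box CACGTG was matched in Bex4 alone of these 5 genes (6.02% of all windows), and TATAAA in Bex2 alone (12.4%). The E box of Bex4 spans the end of its run shared with Bex1, where the Bex1 window stops. The GC box of Bex3 spans the end of its run shared with Bex2, where the Bex2 window stops. Bases past those edges were not searched, so whether Bex1 and Bex2 hold these 2 matches is not known. A match describes the letters only, and a missing match says only that these letters are not in this window.

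Bex1 was high in M2a, intermediate and variable in M0, and low in M1. The M2a arrays read 12.34, 12.42 and 12.25, a mean of 12.33 ± 0.09 (SD, n = 3). The M1 arrays read 2.25, 2.10 and 1.96, a mean of 2.11 ± 0.15 (SD, n = 3). The M0 arrays 1 to 5 read 6.20, 7.77, 9.33, 7.32 and 8.22, a mean of 7.77 ± 1.15 (SD, n = 5). No 2 groups overlapped: the lowest M2a array lay 2.91 above the highest M0 array, and the lowest M0 array lay 3.95 above the highest M1 array. The M2a and M1 arrays each lay close together, while the M0 arrays spanned 3.13.

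**Figure D1:**
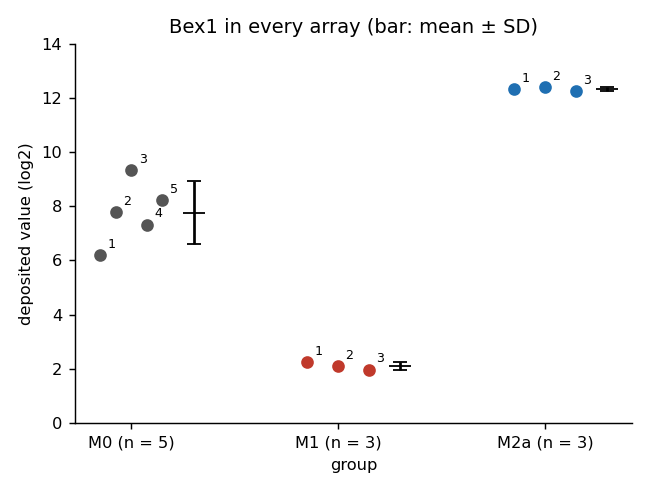
Log2 level of the Bex1 probe set in each of the 11 arrays, grouped as M0 (5), M1 (3) and M2a (3), with horizontal bars for group means and error bars for the SD. The M2a arrays lie between 12.25 and 12.42, the M1 arrays between 1.96 and 2.25, and the M0 arrays spread from 6.20 to 9.33.

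Because M1 and M2a levels chose the gene, its differences are given as descriptions with no p-value. The M2a mean was above the M1 mean by 10.23 ± 0.57 (SE of the fit), a ratio of 1197 on the linear scale. That SE pools the spread of all groups, the wide M0 among them, and was 0.09 when M1 and M2a alone were fitted. The M2a mean was above the M0 mean by 4.56 ± 0.51, a ratio of 23.6, which ranked 10th among rises of the 18193 genes. The M1 mean was below the M0 mean (M1 minus M0 -5.66 ± 0.51), a ratio of M0 to M1 of 50.7, which ranked 14th among falls. No detection calls were used here, so whether the M1 level lay above the array's background is not known, and the ratios that involve M1 depend on it. In these bulk samples a smaller share of cells with Bex1 RNA and less of it per cell cannot be told apart.

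The spread of Bex1 within M0 was large among genes. Only 16 other genes (0.0880%) had an M0 SD at least as large as its 1.15, where the median gene had 0.24. In M1 and M2a its SDs of 0.15 and 0.09 stood beside medians of 0.08 and 0.09. Array 1 of M0 was the lowest and array 3 the highest. Averaged over arrays 1 to 3, the M0 values were the same as those averaged over arrays 4 and 5 for each probe set, to within 8.33e-05. The M0 arrays are thus not 5 independent measurements, although the SEs count them as such.

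The genes that came after Bex1 in the difference between M2a and M1 lay 2.87 or more below it. Atp6v0d2, a subunit of the vacuolar proton pump, had a difference of 7.35, and Mgl2, a lectin of alternatively activated macrophages, had 6.96. Anxa1, a phospholipid-binding protein, had 6.62, Itgax, the integrin CD11c, 6.15 and the kinase-related gene Gask1b 6.04. These values stand just outside the choice of Bex1 and are given as descriptions, with no p-value.

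Of the 5 measured BEX genes, none besides Bex1, which was not tested, was called higher in M2a than in M0, where 18.6% of all genes were. With so few genes, a count of 0 is near that share. Of 8 other measured BEX and TCEAL genes, limma called 0 higher and 5 lower in M1 than in M0 at an adjusted p under 0.05, against 22.1% and 17.6% of all genes (39.7% in either direction), and 0 were higher at an unadjusted p. Their median difference was -1.07, where all genes had 0.06. In M2a against M0, 2 were higher and 4 lower, against 18.6% and 13.3% of all genes (31.9% in either direction), with a median of -0.11 where all genes had 0.07. In M2a against M1, 4 were higher and 0 lower, against 15.6% and 13.7% of all genes (29.4% in either direction), with 0 lower at an unadjusted p and a median of 0.69 where all genes had 0.02. These comparisons share arrays and are not independent of each other.

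Bex4, whose start is preceded by the nearly identical window, read 5.59, 5.49, 4.94, 6.04 and 4.64 in M0. It read 3.59, 3.42 and 3.19 in M1, and 4.47, 4.70 and 4.52 in M2a. Every M1 array was below every M2a array, and the highest M2a array (4.70) was above the lowest M0 array (4.64). Bex4 was lower in M1 than in M0 (M1 minus M0 -1.94 ± 0.26, adjusted p = 0.00012, limma) and higher in M2a than in M1 (1.16 ± 0.29, adjusted p = 0.01). In M2a it was below M0 (-0.78 ± 0.26, adjusted p = 0.039), the opposite sign from the 4.56 of Bex1. That call was lost in 11 of 21 alternatives, for example without M2a array 1 (adjusted p = 0.12).

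Bex3 read 8.65, 8.86, 8.78, 8.47 and 9.06 in M0. It read 7.32, 7.24 and 7.41 in M1, and 8.34, 8.22 and 8.57 in M2a. The M1 arrays lay below all others, and the M2a and M0 arrays overlapped. Bex3 was lower in M1 than in M0 (-1.44 ± 0.13, adjusted p = 6e-06, limma) and higher in M2a than in M1 (1.05 ± 0.15, adjusted p = 0.00022). Its difference of -0.39 ± 0.13 between M2a and M0 (adjusted p = 0.043) lost its call in 12 of 22 alternatives, for example with the M0 arrays 4 and 5 only (adjusted p = 0.19).

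Bex2 stayed within 3.73 and 4.11 over all 11 arrays. Its differences from M0 were 0.15 ± 0.09 in M1 (adjusted p = 0.2, limma) and 0.17 ± 0.09 in M2a (adjusted p = 0.16), and both were called after quantile normalization (0.28, adjusted p = 0.012, and 0.22, adjusted p = 0.046). Bex6, the member on chromosome 16, read 4.10 to 5.63 in M0, 2.49 to 2.93 in M1 and 2.32 to 2.50 in M2a. It was lower in both states than in M0, with differences of -2.12 ± 0.27 in M1 (adjusted p = 7.1e-05) and -2.42 ± 0.27 in M2a (adjusted p = 3.9e-05). Bex6 was therefore low in the state in which Bex1 was high.

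Among the TCEAL genes, which encode relatives of a transcription elongation factor, Tceal7 and Tceal9 rose in M2a. Tceal7 read 2.26 to 2.75 in M0, 2.76 to 2.84 in M1, and 4.50, 5.06 and 3.69 in M2a, so that the M2a arrays lay above all others. Its difference between M2a and M0 was 1.91 ± 0.24 (adjusted p = 9.2e-05, limma), and between M1 and M0 0.29 (adjusted p = 0.35). Tceal9 read 10.07 to 11.05 in M0, 9.22 to 9.42 in M1 and 11.28 to 11.32 in M2a, the same order of groups as Bex1 with no overlap. It differed from M0 by -1.32 ± 0.19 in M1 (adjusted p = 0.00017) and by 0.67 ± 0.19 in M2a (adjusted p = 0.017). The M2a call was lost when any 1 of the 3 M2a arrays was left out (adjusted p = 0.054 to 0.061).

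Tceal1 was lower in both states than in M0, with differences of -0.81 in M1 (adjusted p = 0.0015, limma) and -0.72 in M2a (adjusted p = 0.0041). Tceal8 read 6.63 to 8.42 in M0, 8.07 to 8.11 in M1 and 8.34 to 8.50 in M2a. Its difference of 0.89 between M2a and M0 did not pass (adjusted p = 0.059) and passed in 5 of 22 alternatives. The alternative that left out M0 array 5 gave 1.11 (adjusted p = 0.0062). Tceal3, Tceal5 and Tceal6 shared 1 probe set and were left out. Leaving out M2a array 1 or 2 reduced the family's calls between M2a and M0 from 6 to 3.

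**Figure D2:**
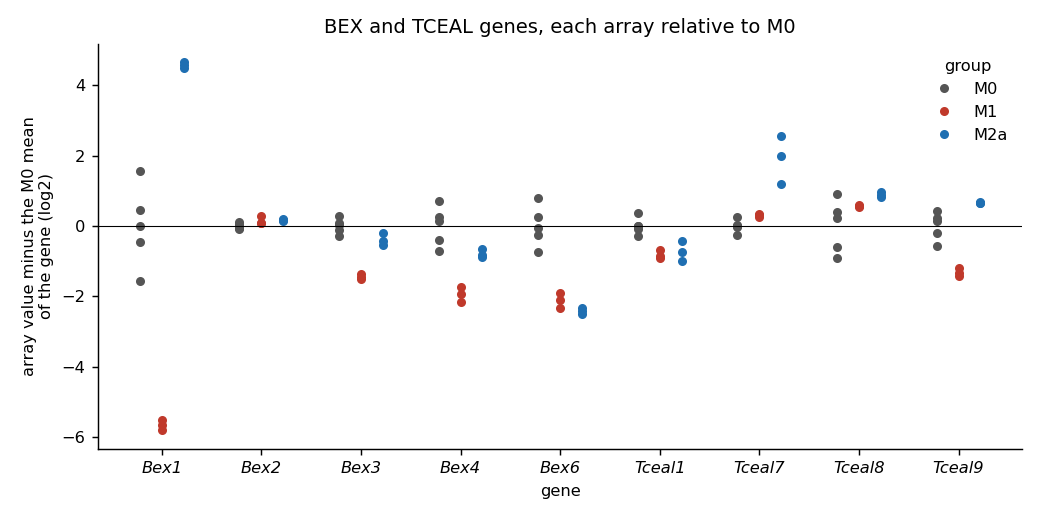
Relative log2 levels of the 9 measured BEX and TCEAL genes in each array of M0, M1 and M2a, each as the array's value minus the M0 mean of the gene, so that 0 is the M0 mean. Bex1 has group means of -5.66 in M1 and 4.56 in M2a on this scale, Tceal9 keeps the same order of groups at -1.32 and 0.67, and Bex2 stays near 0.

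The genes beside Bex1 on the X chromosome were set in order from the RefSeq annotation, with the 6 nearest measured genes on each side. Bex1 lay between Tceal8, 41.7 kb away, and Tceal7, 8.53 kb away. Bex3 and Tceal9 lay 54.7 and 29.6 kb away on the same side as Tceal7, and Bex4 73.5 kb away on the other. Of these 12 neighbours, 4 were higher and 3 lower in M2a than in M0, where 18.6% and 13.3% of all genes were. In M1, 5 were lower than in M0 (17.6% of all genes), and 6 were higher in M2a than in M1 (15.6% of all genes). No neighbour had a difference between M2a and M1 above 1.99 in size, the value of Tceal9 (adjusted p = 1.9e-05, limma), where Bex1 had 10.23.

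Neighbours outside the family differed among themselves. Bhlhb9 read 4.32 to 5.69 in M0, 3.37 to 3.47 in M1 and 4.73 to 5.09 in M2a, with M1 below all other arrays. It was lower in M1 than in M0 (-1.60, adjusted p = 0.00033, limma) and differed by -0.11 between M2a and M0 (adjusted p = 0.77). Nxf3, of the nuclear RNA export factor family, was higher in M2a than in M0 by 0.53 (adjusted p = 0.0013), from levels of 2.00 to 2.30 to levels of 2.68 to 2.75. The RefSeq span of Nxf3 overlaps that of Bex4. Morf4l2, a chromatin protein, was higher in M2a by 0.51 (adjusted p = 0.0054). Without probe sets marked as shared, that call was lost (0.54, adjusted p = 0.077, limma), and Morf4l2 was called higher in M1 than in M0 (0.76, adjusted p = 0.014).

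**Figure D3:**
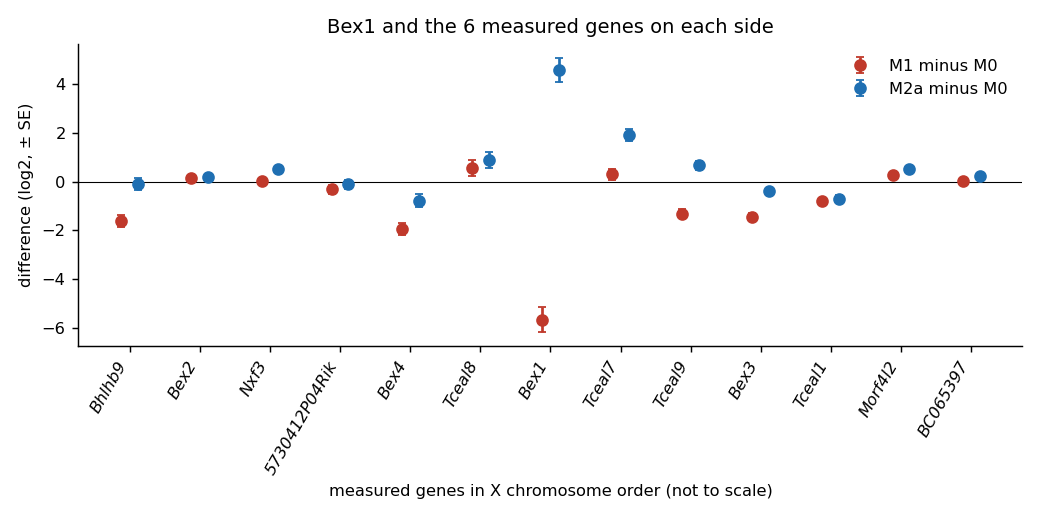
Differences in log2 level of M1 and of M2a from M0, with SE, for Bex1 and the 12 measured genes nearest to it on the X chromosome, in map order and not to scale of distance. Bex1 stands at -5.66 and 4.56, while its neighbours stay between -1.94 and 1.91.

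Genes whose levels followed Bex1 most closely were found by Pearson's r over the 11 arrays among 1071 genes with group means that spanned at least 2 log2 units. Clone-like and mitochondrial symbols were passed over, as were all symbols that begin with a capital letter and a digit, some of them well-known genes. The distances given below used the same genes. The likeness is a description, since the arrays of a group share their state and 3 group levels set most of r. The 10 highest were Daglb (0.992), Mfge8 (0.990), Atp6v0d2 (0.989), Arhgap25 (0.989), Anxa2 (0.988), Apbb2 (0.988), Mindy1 (0.987), Septin8 (0.986), Fbxo32 (0.986) and Mgll (0.985). Daglb makes the endocannabinoid 2-arachidonoylglycerol and Mgll breaks it down. Mfge8 is a secreted bridge for the uptake of dying cells, Anxa2 a phospholipid-binding protein, and Fbxo32 a ubiquitin ligase subunit best known from muscle wasting.

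Each of these 10 had its lowest mean in M1 and its highest in M2a, an order that their choice by r over these same arrays brings with it. Daglb read 6.84, 7.77, 7.89, 7.17 and 7.84 in M0, 5.24, 5.48 and 5.52 in M1, and 9.50, 9.71 and 9.21 in M2a. Mfge8 read 8.14 to 9.83 in M0, 6.66, 6.68 and 6.70 in M1, and 11.65, 11.67 and 10.86 in M2a. In both, array 1 was the lowest and array 3 the highest of M0, as in Bex1, and the groups did not overlap. With the mean of all its probe sets, Septin8 no longer had a lower level in M1 than in M0 (0.0090 in place of -1.49).

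By the Euclidean distance of gene-centred log2 values, which also weighs the size of the differences, the nearest genes were Atp6v0d2 (3.77), Gask1b (5.40), Anxa1 (5.59), the macrophage elastase Mmp12 (5.63) and Bcar3 (5.87). Of the 10 nearest, 1 gene, Atp6v0d2, was also among the 10 highest by r. Atp6v0d2 read 8.53, 10.10, 10.76, 9.46 and 10.13 in M0, 4.99, 4.69 and 5.46 in M1, and 12.37, 12.37 and 12.44 in M2a. Its M0 arrays stood in the same order as those of Bex1, from array 1 through 4, 2 and 5 to array 3. Atp6v0d2 was picked by its likeness over these same arrays, and the order was not particular to it. Tceal9 and Cd68 had that M0 order too, and Cd68 had alike means in M1 (12.77) and M2a (12.80). A second probe set of Atp6v0d2 read 7.80 to 10.04 in M0, 4.15 to 4.44 in M1 and 11.75 to 11.93 in M2a.

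**Figure D4:**
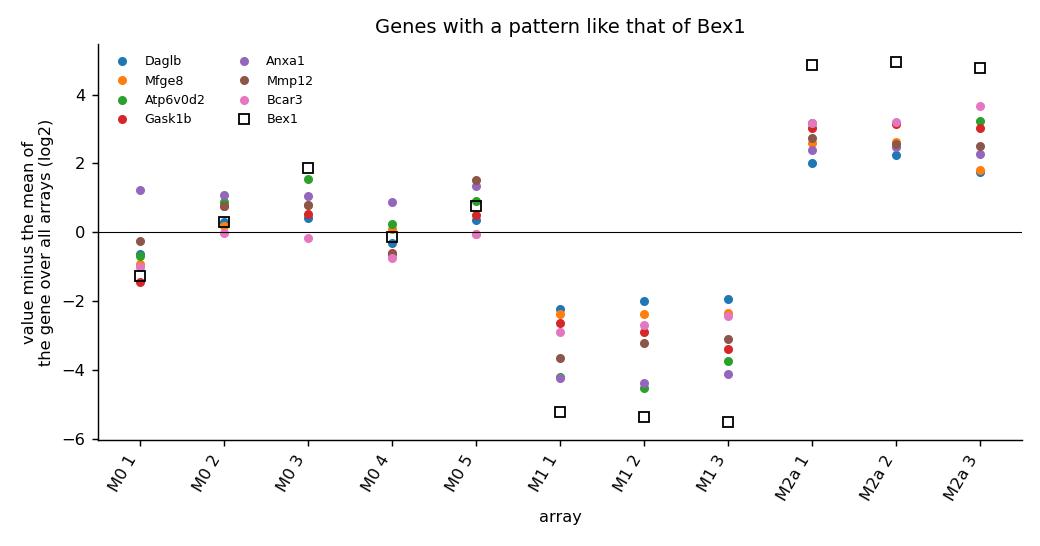
Gene-centred log2 levels of Bex1 and of Daglb, Mfge8, Atp6v0d2, Gask1b, Anxa1, Mmp12 and Bcar3 in each of the 11 arrays, where 0 is the gene's mean over the arrays. The genes share the order M1, M0, M2a, and Bex1 has the widest span.

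Bex1 was high in M2a alongside many genes of the IL-4 and IL-13 response, a list of which 29 of 30 members were measured. The list was chosen with earlier results of these data known, so its counts are descriptions. In M2a against M0, 16 were higher and 1 lower, where 18.6% and 13.3% of all genes were, and the list's median was 0.77 beside 0.07 over all genes. Arg1, which breaks down arginine, rose by 7.68 ± 0.18 (adjusted p = 3.6e-10, limma), Mgl2 by 5.52 and Itgax by 4.86. Il4ra, the shared receptor chain, fell by 0.69 (adjusted p = 0.0023), and Stat6 differed by 0.14 (adjusted p = 0.48). The difference of Bex1, 4.56, was smaller than those of Arg1, Mgl2 and Itgax.

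In M1 against M0, 9 genes of that list were higher and 11 lower, where 22.1% and 17.6% of all genes were, with a median of -0.00 beside 0.06 over all genes. Chil3, a chitinase-like protein of alternatively activated macrophages, fell by 5.22 and the mannose receptor Mrc1 by 4.85. Arg1 moved the other way from Bex1 in M1: it read 4.94 to 5.64 in M0 and 8.71 to 8.81 in M1, a rise of 3.48. In M2a against M1, 16 were higher and 7 lower, where 15.6% and 13.7% of all genes were. Genes of the list that were high in M2a thus went either way in M1, and Bex1 was low there.

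Genes of the neurotrophin system, whose p75 receptor Bex1 and Bex3 bind, were not called in a larger share than all genes. Of 14 measured members of 19, 1 was higher and 2 lower in M2a than in M0 (31.9% of all genes changed in either direction), with a median of -0.03. In M1, 1 was higher and 4 lower than in M0 (39.7% of all genes changed), with a median of -0.10. Ngfr, the receptor that Bex1 binds, read 4.26 to 4.92 in M0, 3.96 to 4.08 in M1 and 4.41 to 4.47 in M2a. Its M2a arrays lay inside the M0 range, with a difference of -0.16 (adjusted p = 0.42, limma). Ngfr was lower in M1 than in M0 (-0.56, adjusted p = 0.0076), but the mean of its 3 probe sets gave 0.17.

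Nradd, a death-domain relative of Ngfr, was the member that was higher in M2a. It read 6.17 to 6.46 in M0, 5.99 to 6.44 in M1, and 7.07, 7.18 and 7.53 in M2a, above all other arrays. The difference from M0 was 0.95 ± 0.14 (adjusted p = 0.00028, limma). The members lower in M2a were Irak1 (-0.49) and the receptor partner Sort1 (-0.46). The sign of the Sort1 difference turned with the mean of all its probe sets (0.02).

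Markers of neurons, where BEX genes are best known, were called in M2a about as often as all genes. Of 19 measured neuron and Schwann cell markers, 2 were higher and 4 lower in M2a than in M0, where 31.9% of all genes changed in either direction, with a median of -0.03 beside 0.07 over all genes. Uchl1, a ubiquitin hydrolase abundant in neurons, read 4.07 to 4.29 in M0, 4.21 to 4.29 in M1, and 7.24, 7.29 and 5.61 in M2a. Its M2a arrays lay above all others, and array 3 was the lowest of them (M2a minus M0 2.51, adjusted p = 7.9e-05, limma). Ncam1 fell by 1.65 and Snap25 by 0.88. Map2 gave 4.52 to 4.79 in M2a and 4.38 to 4.58 in M0 on its main probe set, while another, named after its values were seen, gave 7.95 to 8.06 in M2a, 2.70 to 3.18 in M0 and 2.30 to 2.63 in M1. Of 11 skeletal muscle markers, 2 were higher and 1 lower in M2a than in M0, near the 18.6% and 13.3% of all genes.

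The sorted cells of every group had high Adgre1 and Cd68, and the groups differed in other macrophage markers and in markers of other cells. Adgre1, which encodes F4/80, read 10.78 to 11.59 in M0, 12.37 to 12.49 in M1 and 11.51 to 11.85 in M2a, and Cd68 read 11.84 or more on every array. Of 11 measured macrophage genes, 6 were higher and 1 lower in M1 than in M0, where 22.1% and 17.6% of all genes were. In M2a, 2 were higher and 7 lower than in M0, Csf1r among the latter, where 18.6% and 13.3% of all genes were. The log2 of the summed levels of 11 measured neutrophil genes was 15.73 to 16.71 in M0, 13.60 to 13.71 in M1 and 9.12 to 9.25 in M2a. The sum of 13 mast cell, basophil and eosinophil genes was 12.34 to 13.71 in M0, 8.36 to 8.38 in M1 and 8.83 to 8.92 in M2a. On a log scale no marker is at 0. Mpo, of neutrophil precursors, read 10.23 to 13.10 in M0, 3.78 to 4.12 in M1 and 4.74 to 4.79 in M2a.

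The neutrophil sum separated all 3 groups without overlap, in the order M2a, M1, M0 from low to high, and the mast cell, basophil and eosinophil sum was highest in M0, with M1 slightly below M2a. Lcn2 (12.62 to 12.68) and S100a8 (12.28 to 12.42) made up most of the neutrophil sum in M1. Of the 11 neutrophil genes, 4 were lower and 0 higher in M2a than in M1, where 13.7% and 15.6% of all genes were. Mpo was lower in M1 than in M2a on every array. The order of Bex1 was M1, M0, M2a. The log2 summed level of 9 dendritic cell genes had that same order without overlap, at 8.79 to 8.80 in M1, 9.03 to 9.17 in M0 and 12.06 to 12.36 in M2a. Itgax alone read 11.89 to 12.20 in M2a and made up most of the M2a sum. The median of the 9 gene means was 5.42 in M1, 5.46 in M0 and 5.43 in M2a. A rise in a minority of the genes would not move that median. Within M0, array 1 had the highest neutrophil sum (16.71) and the lowest Bex1 (6.20), while array 3, with the highest Bex1 (9.33), had 15.87 and array 2 the lowest sum (15.73). Against M0, all 11 neutrophil genes and 10 of 13 mast cell, basophil and eosinophil genes were lower in M2a, where 13.3% of all genes were lower and 18.6% higher. Of 13 stroma and endothelium genes 8 were lower and 1, Vwf, higher in M2a, and Vwf was also among the 10 genes nearest to Bex1 by distance. Of the 9 dendritic cell genes 3 were higher and 0 lower in M2a, with Itgax among the 3. Of 8 lymphoid genes 1 was higher and 2 lower, which is near those shares, and of 7 erythroid genes 4 were lower. The part of these cells in the level of Bex1 was not tested.

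Bex1 is X-linked, and the groups also differed in sex-chromosome genes. Xist, the RNA of the inactive X, read 11.74 to 12.01 in M0, 5.37 to 5.98 in M1, and 5.58 and 5.81 in M2a arrays 1 and 2, with array 3 higher than array 2 by 5.19. The Y-linked gene Eif2s3y read 2.36 to 3.02 in M0, 8.48 to 8.87 in M1, and 8.94, 8.96 and 8.48 in M2a. M0 was therefore high in Xist and low in Eif2s3y, M1 and M2a arrays 1 and 2 the reverse, and M2a array 3 high in both. High Xist with low Eif2s3y is the pattern of female cells, and the reverse is that of male cells. The labels give no sex. Of 9 measured sex-chromosome genes, 3 were higher and 3 lower in M1 than in M0 (39.7% of all genes changed in either direction), and 3 were higher and 4 lower in M2a than in M0 (31.9%). Bex1 in M2a array 3 was 12.25, beside 12.34 and 12.42, and without that array its difference between M2a and M1 was 10.27. M1 and M2a arrays 1 and 2 were alike in Xist and Eif2s3y and differed in Bex1. Every comparison with M0 also compares these markers, so cytokine state and sex cannot be told apart there. The part of sex in the M0 level was not tested.

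**Figure D5:**
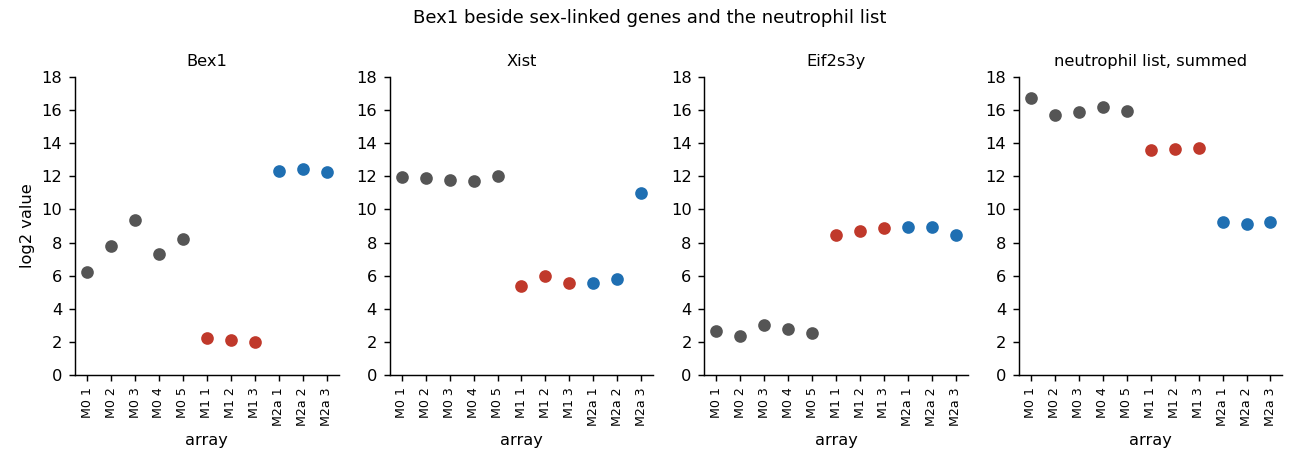
Log2 levels of Bex1, Xist and Eif2s3y and the log2 summed level of 11 neutrophil genes, in 4 panels, each with the 11 arrays of M0, M1 and M2a along the horizontal axis. M0 stands apart from M1 and M2a in Xist and Eif2s3y, except for the Xist level of M2a array 3, which is 5.19 above that of array 2, while Bex1 and the neutrophil sum each separate all 3 groups, in different orders.

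RNA quality was read from the difference between 5′ and 3′ control probe sets for actin. It was -0.61 ± 0.47 (SD, n = 5) in M0, 0.15 ± 0.02 (n = 3) in M1 and -0.57 ± 0.06 (n = 3) in M2a, so that the M2a mean lay inside the M0 range and the M1 mean above it. M0 arrays 4 and 5, at -1.27 and 0.05, were the extremes of M0 and had Bex1 levels of 7.32 and 8.22, inside the M0 range. Its part in the low M1 level of Bex1 was not tested.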

How the data were processed

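Total RNA of 11 samples was measured on 1-colour Affymetrix arrays. The values deposited by the authors are log2 levels of 45101 probe sets (0.73 to 14.49, array medians 5.14 to 5.34). The submitters' processing notes name Partek and no version. How background and normalization were handled is not given in the sources used here, and the values were used as deposited. Of 35890 probe sets in the gene table, 34945 had 1 symbol, 932 had several and were left out; 9211 probe sets were not in it. Each of 18193 genes took its probe set with the highest mean, with no filter on low values.

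All genes were fitted by lmFit and eBayes of limma 3.58.1 (R 4.3.3), with 1 mean for each group over all 11 arrays, Benjamini-Hochberg adjustment over 18193 genes and a threshold of 0.05; the fit was tested on simulated data. The number of arrays limits the precision. Bex1 and the gene lists were chosen with earlier results of these data known. Named genes were the BEX and TCEAL members, 6 X-chromosome neighbours a side, the 10 genes most like Bex1 (and those nearest by distance), the next 5 in the M2a and M1 difference, up to 3 rises and 3 falls per list, and sex-chromosome and defining markers. Promoter sequences are RefSeq's (GRCm38.p6). The alternatives were other normalizations, probe-set choices, filters, fits of fewer arrays, a replicate block and leaving out each array.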

Additional observations from a re-analysis of the deposited data

How the results depend on the processing

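Bex1 kept the direction of its 3 differences in all alternatives that were run: M1 minus M0 lay between -6.33 and -5.27, M2a minus M0 between 3.89 and 4.95, and M2a minus M1 between 10.13 and 10.30. Many alternatives could not move these values. With 1 probe set, other probe-set choices left Bex1 as it was, and so did gene filters and other variance settings. Leaving out M0 arrays cannot change M2a minus M1. The equal means of M0 arrays 1 to 3 and 4 to 5 fix the results of those subsets. Counts of calls moved more. Genes changed, 7217 in M1 against M0, 5804 in M2a against M0 and 5341 in M2a against M1, came to 4758 and 3801 in the first pair with M0 arrays 4 and 5 only, to 4625 in M1 against M0 with genes above the median gene only, where fewer genes are tested, and to 10357 in M2a against M1 with only the 2 groups compared. Without M0 arrays 1 and 4, a choice made after seeing the data because they correlated least with the other M0 arrays, M2a against M1 gave 8653; the cause was not tested. Leaving out each array in turn gave 5391 to 8457, 4161 to 6829 and 3927 to 6192.

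Calls over all the lists without Bex1, 89, 91 and 67, came to 53 and 55 in the first pair with genes above the median gene and to 109 in M2a against M1 with only the 2 groups compared. BEX and TCEAL genes other than Bex1 gave 2, 2 and 2 calls with genes above the median gene, in place of 5, 6 and 4, and 3 to 6 in M2a against M0 when an array was left out. By Euclidean distance, 1 of the 10 genes most like Bex1 was shared. Over 174 results for single genes and 22 alternatives, 3651 of 3780 values kept their direction and side of the threshold, 73 lost a call, 48 gained 1 and 8 reversed. With the mean of all probe sets, the reversed values were 0.0090 for Septin8, 0.17 for Ngfr and 0.29 for Kidins220 in M1 against M0, 0.022 for Sort1 in M2a against M0, and -0.16 for Kidins220 and 0.57 for Uty in M2a against M1. Without probe sets marked as shared, Irak1 gave 0.057 in M1 against M0 and -0.42 in M2a against M1.

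Same-numbered arrays of different groups had deviations that correlated between -0.04 and 0.25, and not every pair was over 0.1, so the numbers were not taken to pair the samples. With the replicate number as a block, 8023, 6492 and 6963 genes changed in M1 against M0, M2a against M0 and M2a against M1, and the differences of Bex1 were -5.66, 4.56 and 10.23.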
